A study of Mus musculus with 16 samples.

Results

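The signal recognition particle (SRP) and its receptor were followed through 8 genes, *Srp9*, *Srp14*, *Srp19*, *Srp54a*, *Srp68*, *Srp72*, *Srpr* and *Srprb*, taken by the gene symbols of the array. They held 13 of the 25697 probes of the array, and every one of the 8 genes had at least 1 probe. The genes were selected on the strain contrast itself, that is, on the A/J and C57BL/6J signals of *Srp9* and *Srpr* in these same samples. The strain values of the members are therefore given as a description, without a test. Hepatic RNA was measured on Illumina Mouse Ref 8 bead arrays, 1 array per sample, in 8 samples of male A/J mice and 8 samples of male C57BL/6J mice. These are inbred strains, no genetic change was made in either, and all mice of both strains received the same high-fat, high-caloric (HFHC) diet, so that no chow-fed sample enters here. The age tag of the labels gives 8 weeks. The methods give 8 to 10 wk for the mice used and 8 wk of the diet, so the tag may not be the age at harvest. No label names a pool, whereas each sample was pooled from 2 mice by the methods, and it is not stated which samples share animals. P values below measure only the spread between these samples.

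SRP is a ribonucleoprotein of the cytosol. It binds the signal peptide of a secretory or membrane protein as it leaves the ribosome, slows elongation, and takes the ribosome to the SRP receptor on the endoplasmic reticulum (ER), where the chain is handed to the Sec61 channel. *Srp9* and *Srp14* encode the heterodimer at the Alu end of the particle, which is the part that slows elongation. *Srp54a* encodes the GTPase that holds the signal peptide, *Srp19* a protein needed to assemble it onto the RNA, and *Srp68* and *Srp72* the heterodimer that links both ends of the particle. *Srpr* encodes the alpha subunit of the receptor, a GTPase that docks to SRP54, and *Srprb* the beta subunit, which anchors it in the membrane. Hepatocytes secrete most plasma proteins and send a large load of chains along this route.

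Values are the deposited quantile-normalized signals on a log2 scale, which ran from 7.61 to 14.97 with a median of 8.01 on the arrays. A fold stands for 2 to the power of a difference between these values, and levels of different probes cannot be set against each other. Of the 13 member probes, 10 were among the brighter 50.8% of all probes, which were kept, with at least 1 kept probe for each gene. The other 3, probes 2 and 3 of *Srp19* and probe 3 of *Srprb*, lay near the bottom of the scale and differed between the strains by 0.03, -0.01 and -0.02. Hepatocyte markers were high in every sample, at a mean over 15 genes of 12.65 to 12.91 in A/J and 12.62 to 12.94 in C57BL/6J. Exocrine pancreas markers, whose cells are rich in ER, averaged 10.83 and 10.63 in A/J samples 4 and 7 and 12.68 in C57BL/6J sample 7, and no more than 8.86 elsewhere. Lymphocyte markers averaged 7.96 to 8.02 in A/J and 7.92 to 8.00 in C57BL/6J, at the array median.

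The signals of *Srp9* and of *Srpr* were lower in A/J livers than in C57BL/6J livers, with no overlap between the samples. On the kept probes of the other 6 genes the strain means differed by -0.32 to -0.04 on the log2 scale. The mean of each of the 10 kept probes was the lower one in A/J, with a median difference of -0.23, against 0.01 over all kept probes. The methods required an adjusted P of at most 0.05 together with 1.5-fold, and 3 of the 10 member probes were past this threshold, all lower in A/J. Over all kept probes 4.86% were past it, and 2.96% with the lower value in A/J. Those 3 are both probes of *Srp9* and the probe of *Srpr*. With the adjusted P alone, 5 member probes passed, beside 26.5% of all kept probes. On 4 member probes all A/J samples lay below the C57BL/6J samples, beside 4.4% of all kept probes. Since the strain contrast chose the genes, these counts show only what was selected. In bulk liver RNA, fewer cells of a type and less RNA per cell cannot be told apart.

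**Figure D1:**
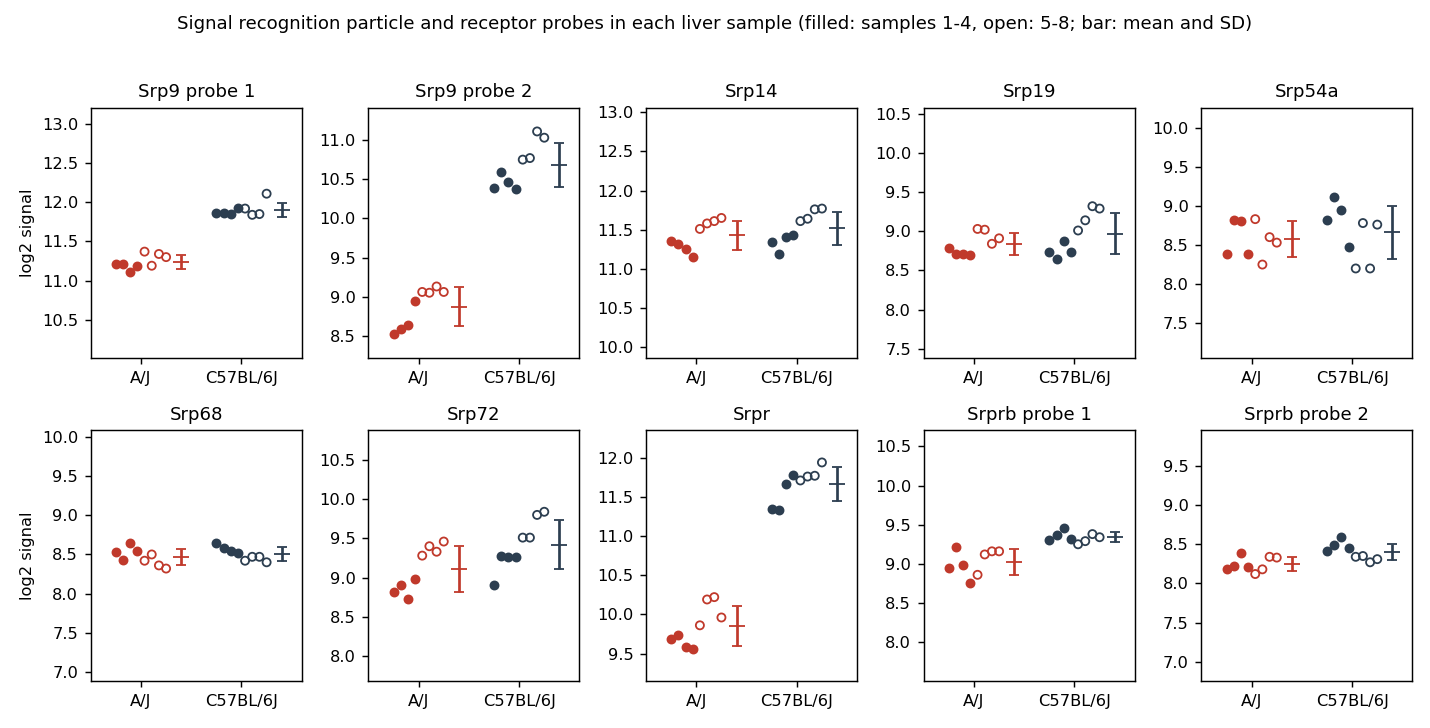
Log2 signal of the 10 kept probes in each liver sample, with A/J in red and C57BL/6J in dark blue, the mean and SD of each strain beside the points, and an axis of the same length in every panel. Both *Srp9* probes and *Srpr* have all A/J samples below all C57BL/6J samples, and *Srp9* probe 2, *Srp14*, *Srp19* and *Srp72* have samples 5 to 8 (open) above samples 1 to 4 (filled) in both strains.

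*Srp9* (chromosome 1, 182124737 to 182132415, GRCm38) was read by 2 probes of 50 bases, which share no run longer than 5 bases with each other and so bind different stretches of the transcript. A stretch of each, decoded from the probe codes of the deposited tables, is shown because the probes gave the same direction but different sizes. Capitals mark AATAAA, the usual polyadenylation signal, which starts at base 30 of probe 1 and stands in 1.39% of all kept probes.
Srp9 probe 1, bases 18 to 47: tgctagcttcctAATAAAccacaaatccac
Srp9 probe 2, bases 1 to 30: gctgcagtggtatgtttcttttggagtaca
The longest run that either shares with a probe of another gene is 14 bases for probe 1 and 13 for probe 2. Their GC content, 46% and 42%, lies below the median of 54% over the kept probes. Where in the transcript each probe lies was not analysed here.

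On *Srp9* probe 1 the A/J samples had 11.11, 11.21 and 11.37 as their lowest, median and highest log2 signal, against 11.84, 11.86 and 12.11 in C57BL/6J. All 8 A/J samples lay below the lowest C57BL/6J sample, with a gap of 0.47. The means were 11.24 ± 0.0881 in A/J and 11.90 ± 0.0901 in C57BL/6J (SD, n = 8 each), a difference of -0.66 with a standard error of 0.0470 and a 95% interval of -0.76 to -0.56, or 1.58-fold lower in A/J.

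On *Srp9* probe 2 the A/J samples had 8.52, 8.99 and 9.13 as their lowest, median and highest log2 signal, against 10.37, 10.67 and 11.11 in C57BL/6J. The strains were again fully apart, with a gap of 1.24. The means were 8.87 ± 0.249 in A/J and 10.68 ± 0.282 in C57BL/6J (SD, n = 8 each), a difference of -1.81 with a standard error of 0.123 and a 95% interval of -2.07 to -1.55, or 3.51-fold lower in A/J. Only 0.421% of all kept probes had a more negative difference, whereas 2.5% did for probe 1.

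Both *Srp9* probes thus placed A/J lower, and their intervals did not meet. Within a sample, probe 1 minus probe 2 was 2.14 to 2.69 in A/J, with a mean of 2.37 ± 0.203, and 0.74 to 1.55 in C57BL/6J, with a mean of 1.22 ± 0.262 (SD, n = 8 each). The size of this offset depends on how brightly each probe binds and carries no meaning of its own, but it differed by 1.15 between the strains. The strain difference of *Srp9* was thus 1.58-fold on probe 1 and 3.51-fold on probe 2. Whether the probes read the same transcript forms in each strain was not tested. Nor was it tested whether the A/J sequence differs under either probe. The paper lists *Srp9* as differentially expressed, with SNPs between these strains of which none is nonsynonymous. It does not say where they lie relative to the probes.

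**Figure D2:**
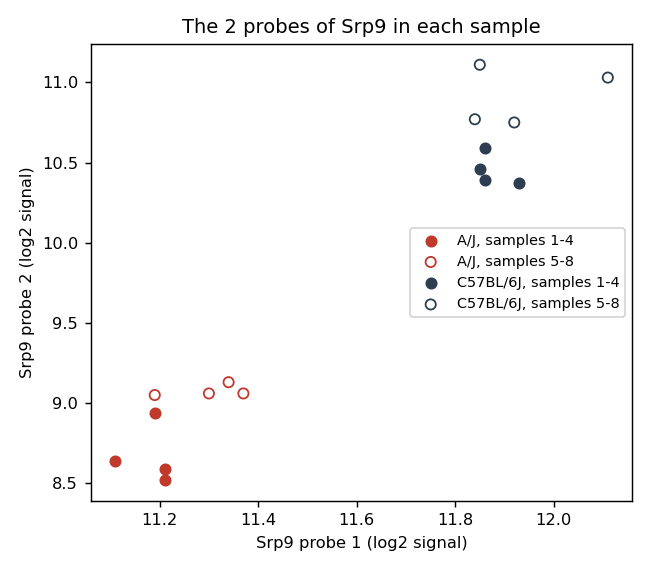
Log2 signal of *Srp9* probe 1 (horizontal axis) against probe 2 (vertical axis) in each of the 16 liver samples, with A/J in red and C57BL/6J in dark blue. The strains form separate groups on both axes, with differences of -0.66 on probe 1 and -1.81 on probe 2, and samples 5 to 8 (open) stand above samples 1 to 4 (filled) on probe 2 only.

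*Srpr* (chromosome 9, 35211203 to 35217003, GRCm38), the receptor GTPase, was read by 1 probe. The opening bases of its 50 are shown, because this transcript was measured at no other place than this probe.
Srpr probe, bases 1 to 30: cttcctgggagaaagggattgttgagaagg
Its GC content was 52%, and the longest run it shares with a probe of another gene was 13 bases. The A/J samples had 9.56, 9.80 and 10.22 as their lowest, median and highest log2 signal, against 11.33, 11.73 and 11.94 in C57BL/6J. Every A/J sample lay below every C57BL/6J sample, with a gap of 1.11. The means were 9.85 ± 0.258 in A/J and 11.66 ± 0.213 in C57BL/6J (SD, n = 8 each), a difference of -1.81 with a standard error of 0.110 and a 95% interval of -2.05 to -1.58, or 3.52-fold lower in A/J. Only 0.413% of all kept probes had a more negative difference. With no further probe of *Srpr*, a sequence difference under the probe and a difference in expression cannot be told apart.

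The beta subunit of the receptor, *Srprb* (chromosome 9, 103188033 to 103202065), had 2 kept probes. On probe 1 the A/J samples had 8.75, 9.05 and 9.22 as lowest, median and highest, against 9.25, 9.33 and 9.46 in C57BL/6J. The strains did not overlap, but the gap between them was only 0.03. The means were 9.02 ± 0.167 in A/J and 9.34 ± 0.0636 in C57BL/6J (SD, n = 8 each), a difference of -0.32 with a 95% interval of -0.45 to -0.19. On probe 2 the samples overlapped, with 8.12 to 8.39 in A/J and 8.27 to 8.59 in C57BL/6J, and the difference was -0.16 with a 95% interval of -0.26 to -0.05. Both probes had the lower mean in A/J. Both differences were under 1.5-fold, and the 1.25-fold of probe 1 stands beside the 3.52-fold of *Srpr*, the other subunit of the same receptor.

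*Srp14* (chromosome 2, 118475843 to 118479696), the partner of *Srp9* in the Alu heterodimer, did not show the strain gap of *Srp9*. Its A/J samples had 11.15, 11.43 and 11.65 as lowest, median and highest, against 11.19, 11.52 and 11.77 in C57BL/6J, and the ranges overlapped almost wholly. The means were 11.43 ± 0.184 in A/J and 11.52 ± 0.211 in C57BL/6J (SD, n = 8 each). The difference of -0.09 had a 95% interval of -0.28 to 0.11, which lies apart from the intervals of both *Srp9* probes.

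The genes of the other end of the particle also overlapped between the strains. *Srp54a* (chromosome 12, 55080476 to 55115367) averaged 8.58 ± 0.223 in A/J and 8.66 ± 0.338 in C57BL/6J (SD, n = 8 each), a difference of -0.09 with a 95% interval of -0.36 to 0.19. *Srp54b* and *Srp54c* lie beside it on chromosome 12, starting at 55155104 and 55230118, and neither has a probe of its own under its symbol on the array. How far the *Srp54a* probe also reads these neighbouring copies was not tested. *Srp19* (chromosome 18, 34331121 to 34336599) averaged 8.84 ± 0.137 in A/J and 8.97 ± 0.263 in C57BL/6J on its only kept probe, a difference of -0.13 with a 95% interval of -0.34 to 0.08.

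Of the heterodimer in the middle of the particle, *Srp68* (chromosome 11, 116245166 to 116274217) had the closest means of all kept member probes, 8.47 ± 0.104 in A/J and 8.51 ± 0.0844 in C57BL/6J (SD, n = 8 each). Its difference of -0.04 had a 95% interval of -0.14 to 0.06. *Srp72* (chromosome 5, 76974701 to 76999935) had 8.72, 9.13 and 9.46 as lowest, median and highest in A/J, against 8.91, 9.39 and 9.84 in C57BL/6J. Its difference of -0.31 had a 95% interval of -0.60 to -0.02, and the samples of the strains overlapped over most of their range. That interval carries the division of samples 5 to 8 from 1 to 4 within each strain, and the difference was -0.30 with a 95% interval of -0.50 to -0.10 in samples 5 to 8 alone and -0.32 with -0.53 to -0.11 in samples 1 to 4 alone. Over all samples, the intervals of *Srp14*, *Srp19*, *Srp54a*, *Srp68* and both *Srprb* probes end short of 1.5-fold.

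**Figure D3:**
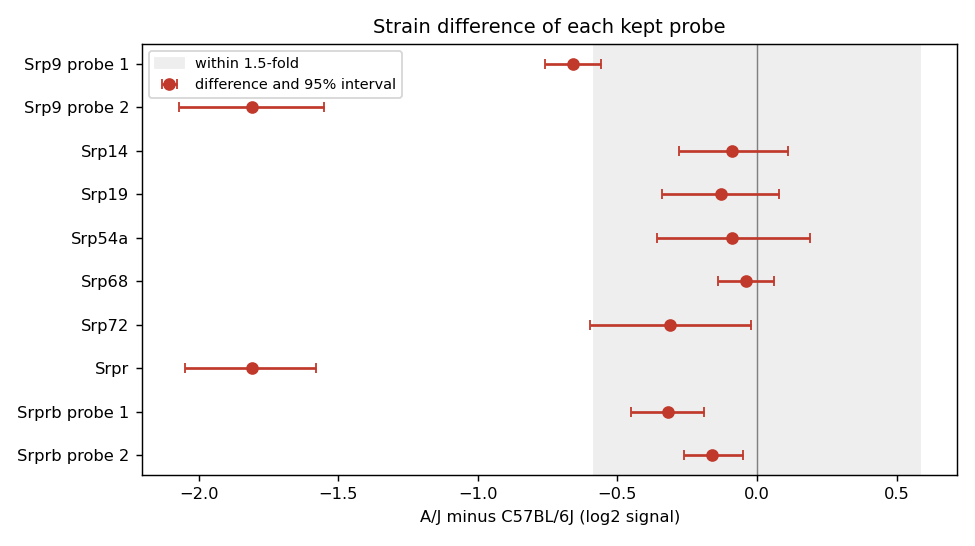
Difference between the strain means (A/J minus C57BL/6J, log2 signal) of each kept member probe with its 95% interval, and the range within 1.5-fold shaded. Both *Srp9* probes, at -0.66 and -1.81, and *Srpr*, at -1.81, lie outside the shaded range, and the other 7 probes have differences from -0.32 to -0.04.

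A different division of the samples ran through the members within each strain. Samples numbered 5 to 8 lay wholly above samples 1 to 4 of the same strain on 5 of the 10 kept probes in A/J, beside 6.78% of all kept probes, and on 4 of 10 in C57BL/6J, beside 9.69%. The 4 probes that did so in both strains read *Srp9* (probe 2), *Srp14*, *Srp19* and *Srp72*. *Srp72* averaged 9.37 in samples 5 to 8 and 8.85 in samples 1 to 4 of A/J, and 9.66 and 9.17 in the same samples of C57BL/6J. *Srp14* averaged 11.59 in samples 5 to 8 and 11.27 in samples 1 to 4 of A/J, and 11.70 and 11.34 in C57BL/6J, a shift of 0.32 and 0.36 that exceeds its strain difference of -0.09.

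*Srp9* probe 2 shifted by 0.40 in A/J and 0.46 in C57BL/6J in the same sense, whereas probe 1 of the same gene shifted by 0.12 and 0.06 and did not separate these samples. *Srpr* averaged 10.06 in samples 5 to 8 and 9.64 in samples 1 to 4 of A/J, fully apart, and 11.79 and 11.54 in C57BL/6J, with overlap. In C57BL/6J, *Srp68* and *Srprb* probe 2 went the other way, at 8.44 in samples 5 to 8 and 8.57 in samples 1 to 4 for *Srp68*, and at 8.32 and 8.49 for *Srprb*. With both directions counted, samples 5 to 8 and 1 to 4 were apart on 6 of 10 member probes in C57BL/6J, beside 18.4% of all kept probes, and on 5 of 10 in A/J, beside 10.6%.

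The labels give no meaning to the sample numbers, and the division was known from earlier work on these data. The samples of high exocrine pancreas signal, A/J samples 4 and 7 and C57BL/6J sample 7, fall on both sides of it. The hepatocyte marker mean was 12.80 to 12.91 in samples 5 to 8 and 12.65 to 12.77 in samples 1 to 4 of A/J, and 12.75 to 12.94 and 12.62 to 12.70 in C57BL/6J, so that it moved with these members. Its part in their levels was not tested. On the 3 probes past the threshold the strain differences were of like size in each set of samples. *Srp9* probe 2 differed by -1.84 in samples 5 to 8 and -1.78 in samples 1 to 4, *Srp9* probe 1 by -0.63 and -0.69, and *Srpr* by -1.73 and -1.89. In the same order, the difference was -0.24 and -0.02 for *Srp19* and 0.06 and -0.24 for *Srp54a*. It was -0.24 and -0.39 for *Srprb* probe 1, and -0.08 and -0.24 for *Srprb* probe 2. For each of these probes the intervals of both sets overlapped, and a change between the sets was not tested. Without A/J samples 4 and 7 and C57BL/6J sample 7 the differences were -1.80 for *Srp9* probe 2, -0.68 for *Srp9* probe 1 and -1.81 for *Srpr*.

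Within a strain, partners that bind each other were compared across samples, as a measure that does not use the strain means. The 5 comparisons were both *Srp9* probes, both *Srprb* probes, *Srp9* with *Srp14*, *Srp68* with *Srp72*, and *Srpr* with *Srprb*, which gave 10 tests over both strains. In 8 of these the samples fell into the sets 1 to 4 and 5 to 8 on at least 1 of the genes, so no coefficient is given for them. One of the 8, *Srp68* with *Srp72* in C57BL/6J, had an adjusted P of 0.0446 (exact permutation test, two-sided, Benjamini-Hochberg over the 10 tests), and no relation can be read from it, because *Srp72* was higher and *Srp68* lower in samples 5 to 8. The 2 comparisons without such sets did not pass. Both *Srprb* probes in A/J had a Pearson r of 0.39 (exact permutation P = 0.325, adjusted P = 0.406, n = 8) and a Spearman rho of 0.48 (exact permutation P = 0.243), and r was -0.03 without the 2 samples farthest from the median. *Srpr* with *Srprb* in C57BL/6J had an r of -0.07 (exact permutation P = 0.875, adjusted P = 0.875, n = 8) and a rho of -0.05 (exact permutation P = 0.935), and r was -0.20 without those 2 samples.

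Genes that act beside SRP at the ER membrane, a list of 43, did not show strain differences of the size of *Srp9* and *Srpr*. Because *Srp9* and *Srpr* were chosen for that size, this contrast was largely set in advance. Of the 36 that were tested, 0 were differentially expressed in limma at the thresholds of the methods, beside 5.29% of the 9052 genes tested, and 14 had an unadjusted P below 0.05, beside 38% of all genes. With the adjusted P alone 7 passed, 5 lower and 2 higher in A/J, which is 19.4% beside 28.1% of all genes. The groups named below are small, and their counts stand beside this same share. The median difference of the list was -0.03, with a range of -0.32 to 0.43, against 0.01 over all genes.

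In the translocon, the channel to which the receptor delivers the ribosome, 0 of 6 tested genes passed the adjusted P. *Tram1*, the chain-associated membrane protein, averaged 13.06 ± 0.134 in A/J and 13.18 ± 0.148 in C57BL/6J (SD, n = 8 each), with a difference of -0.12 (limma adjusted P = 0.234). Further kept probes of *Tram1* differed by -0.16 and 0.21. *Sec63*, which recruits the chaperone BiP to the channel, differed by -0.11 (limma adjusted P = 0.228). The channel subunits *Sec61a1* and *Sec61b*, named outside the fixed rule, differed by -0.08 and -0.19 (limma adjusted P = 0.524 and 0.0539). A second kept probe of *Sec61b* differed by -0.27. *Sec61b* lay near the threshold, and it passed the adjusted P in 4 of 11 alternatives and in 3 of 16 leave-one-out fits.

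The translocon-associated protein complex had 3 tested genes, and 2 of them passed the adjusted P. *Ssr3* averaged 12.69 ± 0.103 in A/J and 12.91 ± 0.129 in C57BL/6J and was lower by -0.23 (limma adjusted P = 0.00695). *Ssr4* averaged 13.25 ± 0.126 in A/J and 13.07 ± 0.115 in C57BL/6J and was higher by 0.18 (limma adjusted P = 0.0350). *Ssr4* did not hold its pass, with an adjusted P of 0.0761 after cyclic loess and one over the threshold without A/J sample 2, 6 or 7 or without C57BL/6J sample 1, 2, 3 or 6.

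Of 6 genes of signal peptidase and signal peptide peptidase, 1 passed the adjusted P. This was *Spcs3*, a subunit of signal peptidase, which averaged 11.39 ± 0.113 in A/J and 10.96 ± 0.134 in C57BL/6J, with no overlap, and was higher by 0.43 (1.35-fold, limma adjusted P = 3.02e-05). The other subunits *Spcs1* and *Sec11a* differed by -0.09 and 0.03 (limma adjusted P = 0.263 and 0.731). Of 9 genes of oligosaccharyltransferase, the enzyme that glycosylates chains as they enter, 2 were lower in A/J. *Stt3b*, a catalytic subunit, differed by -0.32 (limma adjusted P = 3.30e-04) and *Ostc* by -0.24 (limma adjusted P = 0.0223). In samples 1 to 4 *Ostc* differed by -0.38 (limma adjusted P = 0.00488), and in samples 5 to 8 by -0.09 (limma adjusted P = 0.564). The subunits with the brightest probes of this group, *Rpn2* and *Krtcap2*, differed by 0.10 and -0.03 (limma adjusted P = 0.424 and 0.754).

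The routes that bypass SRP were also close between the strains. Of 8 genes of SRP-independent targeting, *Ubl4a* alone passed the adjusted P, lower by -0.18 (limma adjusted P = 0.0217). *Get4*, which acts with it on tail-anchored proteins, differed by 0.23 (limma adjusted P = 0.0873), with 0.38 in samples 5 to 8 (limma adjusted P = 0.0119) and 0.09 in samples 1 to 4 (limma adjusted P = 0.593). *Tmem208* differed by 0.00 (limma adjusted P = 0.975). The nascent-chain-associated complex, which binds chains at the ribosome before SRP does, is made of the products of *Naca* and *Btf3*, and these differed by -0.06 and 0.17 (limma adjusted P = 0.763 and 0.208). *Lrrc59*, a ribosome-binding protein of the ER membrane, was lower by -0.32 (limma adjusted P = 3.94e-04). *Spcs3*, *Stt3b*, *Ostc*, *Ubl4a* and *Lrrc59* were named after their values were seen.

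**Figure D4:**
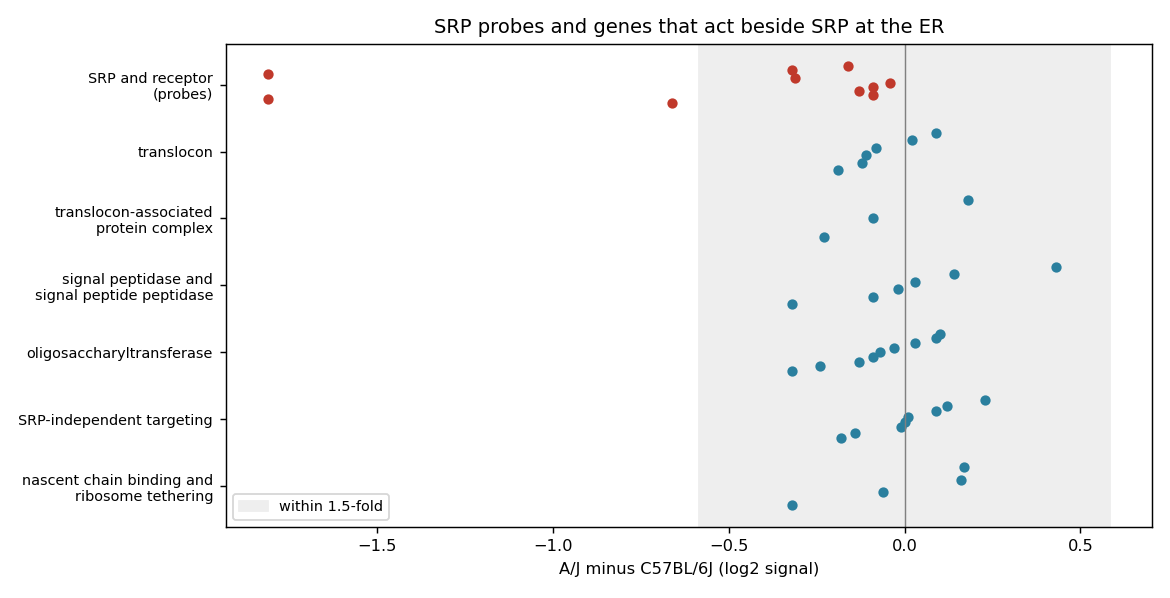
Difference between the strain means (A/J minus C57BL/6J, log2 signal) of the 10 SRP and receptor probes and of the 36 tested genes that act beside SRP at the ER, by group, with the range within 1.5-fold shaded. The 36 genes lie between -0.32 and 0.43, and the 3 points outside the shaded range are both *Srp9* probes and *Srpr*.

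The genes beside *Srp9* and *Srpr* on the chromosome were read in the same fit. Of 10 tested genes that start within 1 Mb of *Srp9*, 1 was differentially expressed, beside 5.29% of all genes. This was *Susd4*, a complement regulator, 639 kb to its right and higher in A/J. It averaged 10.33 ± 0.328 in A/J and 9.63 ± 0.525 in C57BL/6J (SD, n = 8 each), a difference of 0.71 (standard error 0.199, limma adjusted P = 0.0127). Without the 3 samples of high pancreas signal its difference was 0.63 and it was no longer differentially expressed (limma adjusted P = 0.0703). Of the nearest tested genes, *Enah*, an actin regulator 228 kb before it, differed by -0.02 (limma adjusted P = 0.702). Its means, 8.02 in A/J and 8.05 in C57BL/6J, are close to background, so this difference says little about its expression. On the other side, 151 kb away, *Degs1*, the dihydroceramide desaturase, averaged 13.18 ± 0.0652 in A/J and 12.82 ± 0.183 in C57BL/6J and was higher by 0.36 (limma adjusted P = 5.54e-04). None of the 10 genes was lower in A/J past the adjusted P.

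Of 7 tested genes within 1 Mb of *Srpr*, 0 were differentially expressed at 1.5-fold in limma, beside 5.29% of all genes, and 4 passed the adjusted P alone, beside 28.1%. The nearest on the left, *Foxred1*, encodes an assembly factor of mitochondrial complex I and lies head to head with *Srpr* on the minus strand, with 31 bases between the annotated genes. It averaged 9.93 ± 0.103 in A/J and 10.25 ± 0.264 in C57BL/6J and was lower by -0.32 (limma adjusted P = 0.0152), and its other 4 kept probes had differences from -0.40 to -0.20. In samples 1 to 4 *Foxred1* differed by -0.45 (limma adjusted P = 0.00859), and in samples 5 to 8 by -0.20 (limma adjusted P = 0.219). The nearest on the right, *Fam118b*, lies tail to tail with *Srpr*, the annotated genes overlapping by 39 bases, and differed by 0.10 (limma adjusted P = 0.0931). Its means, 8.14 in A/J and 8.04 in C57BL/6J, are close to background. *St3gal4*, *Tirap* and *Rpusd4*, named outside the fixed rule, were higher in A/J by 0.36, 0.40 and 0.26 (limma adjusted P = 0.00130, 0.0108 and 0.00149). For *St3gal4* the difference was 0.51 in samples 1 to 4 (limma adjusted P = 0.00205) and 0.22 in samples 5 to 8 (limma adjusted P = 0.148). No neighbour of either gene was lower in A/J by as much as the gene itself. As *Srp9* and *Srpr* were chosen for their strain gap, this was largely set in advance and shows nothing particular to them.

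**Figure D5:**
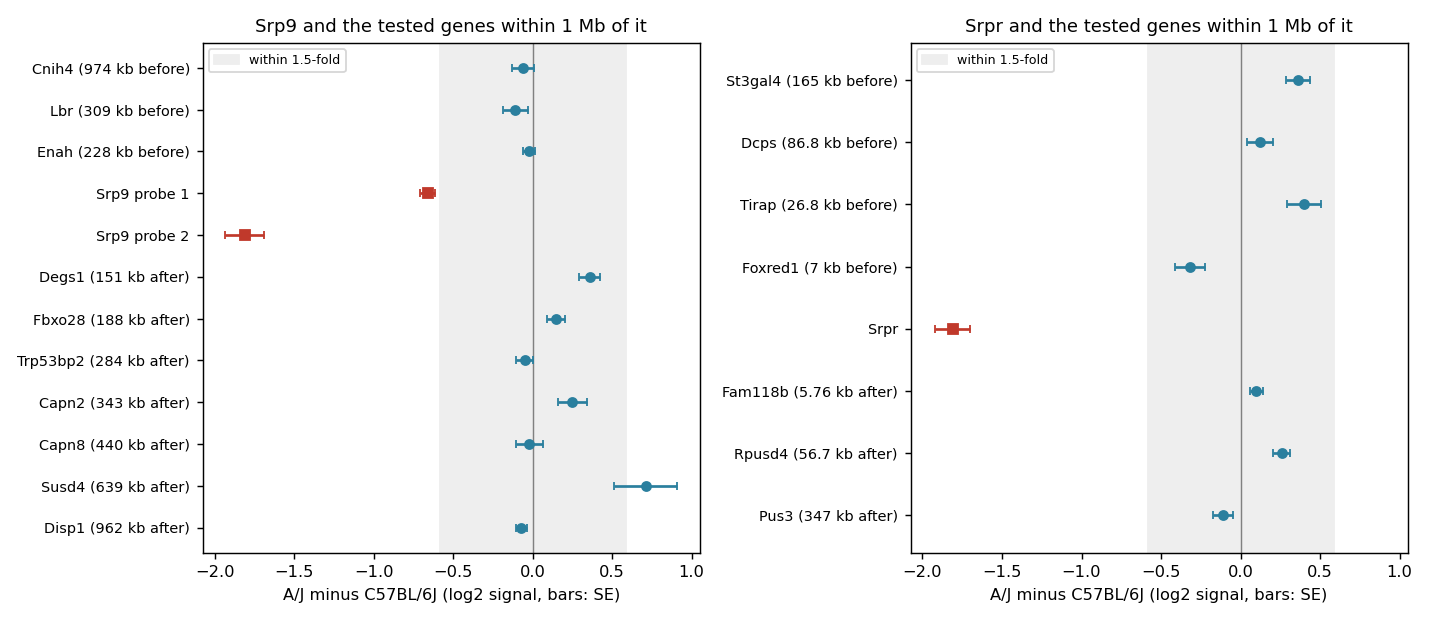
Difference between the strain means (A/J minus C57BL/6J, log2 signal, bars: standard error) of *Srp9* (left) and *Srpr* (right) in red and of the tested genes within 1 Mb of each in blue, in order along the chromosome, with the distance between the lower coordinates of the genes. The neighbours lie between -0.32 and 0.71, and *Srp9* and *Srpr* reach -1.81.

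Across the 16 samples, *Srpr* and the brighter probe of *Srp9* followed the strain, and so did every gene most like them. By Pearson r over 16 samples, given as a description, the genes closest to *Srpr* were *Fgfr1op2* (0.989), *Tomm22* (0.984), *Hc* (0.981), *Ttc27* (0.980) and *Mul1* (0.979). *Hc* encodes complement C5, for which A/J is a known null strain, *Tomm22* a receptor of mitochondrial protein import and *Mul1* a mitochondrial ubiquitin ligase. The genes closest to *Srp9* were *Fgfr1op2* (0.978), *Cbwd1* (0.977), *Ttc27* (0.976), *A2ml1* (0.976) and *Tmem68* (0.976). Each of these 8 genes had the lower mean in A/J, with differences from -3.03 for *Hc* to -1.32 for *Cbwd1*. The A/J means of *Cbwd1* (7.85), *Tmem68* (7.95) and *Ttc27* (8.12) are close to background, which may limit the size of their differences. At an r above 0.9, 175 genes were like *Srpr* and 163 like *Srp9*, and the gap between the strains enters every one of these coefficients.

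The stretch before the start of *Srpr* was also searched, since the study concerns the transcription factor XBP1s, which acts on genes of ER protein handling. Promoters of 300 bases, from 250 before to 50 after the start, were taken from RefSeq (GRCm38.p6) and were matched for 6 of the 8 genes, *Srp9*, *Srp14*, *Srp54a*, *Srp72*, *Srpr* and *Srprb*. The letters searched on both strands were TGACGTG, which is the core of the unfolded protein response element, CCAAT and CCACG with 9 bases between them and ATTGG and CCACG with 1 base between them, which are the ER stress response elements, and CCACG alone, which those elements contain. TGACGTG stood in 1 of the 6 promoters, that of *Srpr*, and in 2.01% of 32851 promoters. It lies 13 to 7 bases before the start and is marked by capitals in the stretch chr9:35211173-35211202 (plus strand).
Srpr promoter: tccgggggctgctggtgTGACGTGtcccgc
CCACG stood in 3 of the 6, *Srp9*, *Srpr* and *Srprb*, and in 32.8% of all promoters. The longer elements stood in 0 of the 6, and in 0.119% and 0.0365% of all promoters. The stretch with TGACGTG also lies in the promoter window of *Foxred1* (35211006 to 35211305), whose transcript start lies 148 bases from that of *Srpr*, on the other strand. The sequence is that of the reference, and the A/J bases at this place were not analysed here. The paper reports more hepatic *Xbp1s* mRNA in A/J mice than in the other strain on this diet. The *Srpr* signal went the other way, 3.52-fold lower in A/J. The letters were chosen after the values were seen, and whether XBP1s acts on *Srpr* was not tested.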

How the data were processed

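Liver RNA of 16 samples was hybridized to Illumina Mouse Ref 8 arrays. The authors scanned them in BeadStudio and quantile normalized them with lumi, whose versions are not stated. The deposited log2 values of 25697 probes were used as given. Whether they are a plain log2 or a variance-stabilized form is unknown. Sorted columns differed by at most 0.00086, so depth cannot be compared between arrays, and the number of arrays limits the precision. Detection P values were not used here. In their place the probes were ranked by mean, and as many were kept as passed the detection filter of the methods (50.8%).

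A linear model of strain (A/J minus C57BL/6J) was fitted to each kept probe by lmFit and eBayes of limma 3.58.1 under R 4.3.3, a procedure tested on simulated data, and P values were adjusted by Benjamini-Hochberg over these probes. Differentially expressed meant an adjusted P of 0.05 or less and at least 1.5-fold. Standard errors and intervals are the moderated ones, and a gene was represented by its kept probe of the highest mean (9052 genes). RefSeq gave positions for 23962 of the 23978 probes with a symbol, and the symbols of *Asna1*, *Wrb*, *Camlg* and *Hm13* were updated. Probe sequences were decoded from the deposited probe codes. Annotation and figures used Python 3.11.15, pandas 2.3.3, numpy 2.4.6 and matplotlib 3.10.9, and the data.table package of R (1.17.8).

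The members and all lists, tests and alternatives were chosen with earlier results of these data known. Besides the members, the genes to be named were the differentially expressed and the 2 brightest genes of each ER group, the differentially expressed and nearest neighbours, and the 5 genes most like *Srp9* and *Srpr*. Motifs were chosen after the values were seen. Marker lists were hepatocyte, exocrine pancreas, plasma cell, macrophage, lymphocyte, endothelial cell, stellate cell, bile duct and red blood cell. In A/J and C57BL/6J, those not given elsewhere averaged 9.04 to 9.11 and 8.98 to 9.16 for plasma cells, 9.48 to 10.09 and 9.66 to 10.00 for macrophages, 9.29 to 9.46 and 9.17 to 9.39 for endothelial cells, 8.82 to 9.09 and 8.80 to 9.27 for stellate cells, 7.90 to 8.00 and 8.04 to 8.16 for bile duct, and 11.60 to 12.16 and 11.53 to 11.85 for red blood cells.

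Alternatives were other filters on dim probes, median centring, cyclic loess, array weights, a trended and robust variance prior, a replicate block, other fold thresholds, another probe per gene, samples 1 to 4 or 5 to 8 alone, leaving out the 3 samples of high pancreas signal, and leaving out each sample.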

Additional observations from a re-analysis of the deposited data

Results flagged for a closer look

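Among the 8 samples of a strain, 4 of 70 gene and strain groups held a sample far from the others (a gap to its nearest neighbour, as a share of the whole range, above Dixon's 95% critical value, which chance passes in about 1 of 20 groups). On *Srp9* probe 1, C57BL/6J sample 8 was the highest at 12.11, with the other C57BL/6J samples at 11.84 to 11.93, and it lies away from the A/J samples. *Tram1* of the translocon was highest in C57BL/6J sample 4, at 13.52 beside 13.05 to 13.22. *Degs1*, the neighbour of *Srp9*, was lowest in C57BL/6J sample 3, at 12.43 beside 12.75 to 13.03. *Tmem68*, among the genes most like *Srp9*, was also lowest in C57BL/6J sample 3, at 9.93 beside 10.13 to 10.24.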

How the results depend on the processing

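The 3 member probes past the threshold were 3 in each of the leave-one-out fits and under the other filters, normalizations, variance models and sample subsets. At 2-fold 2 remained, and with no fold threshold 5 passed. Because the strain contrast chose *Srp9* and *Srpr*, these repeats of the same contrast are a description and no further support. The difference ranged from -0.70 to -0.63 for *Srp9* probe 1, -1.86 to -1.75 for *Srp9* probe 2 and -1.89 to -1.73 for *Srpr*. No result changed direction past a threshold. The count over all probes, 635, was 242 at 2-fold and 3459 without a fold threshold, and 616 to 651 in leave-one-out fits. Without a fold threshold, 7 ER genes, 2 neighbours of *Srp9* and 4 of *Srpr* (6 in all) passed. The 1 neighbour of *Srp9* (*Susd4*) fell to 0 at 2-fold, with samples 1 to 4 or 5 to 8 alone, and without the 3 samples of high pancreas signal. In leave-one-out fits, the counts were 0 to 0 for ER genes, 1 to 1 for neighbours of *Srp9* and of both genes together, and 0 to 0 for those of *Srpr*. The 1 passing within-strain correlation fell to 0 after cyclic loess, without the filter on dim probes and after the means of samples 1 to 4 and 5 to 8 were subtracted, and was 0 to 2 when single samples were left out. The cause of these changes was not tested, except that a fold threshold alters the count by construction.

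The labels name no pairing of the strains by sample number, and the values did not settle it. Same-numbered samples correlated at -0.01 to 0.54, and 3 A/J samples correlated best with their own number. The main fit used no block. With the replicate block, 3 member probes and 641 of all probes were past the threshold, and no call at 1.5-fold changed among the ER genes and neighbours. By the adjusted P alone 10 ER genes (7 without the block), 7 neighbours (6 without) and 6 member probes (5 without) passed, with *Get4* at 0.0320, *Sec61b* at 0.0356, *Sec11c* at 0.0162 and *Fbxo28* at 0.0172 added (limma adjusted P) and none of the ER genes and neighbours lost. Over all kept probes 3812 passed the adjusted P alone with the block and 3459 without it, so passes rose there too. *Get4* also passed without C57BL/6J sample 1 or 2. The member probe added by the block was that of *Srp72*, with a blocked interval of -0.43 to -0.19.

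Signals near the array median of 8.01 are close to background. These include 3 member probes, *Enah* and *Fam118b*, and *Cbwd1*, *Tmem68* and *Ttc27* in A/J. *Srpr* rests on 1 probe, and *Srp9* probes disagree in size.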
